A study of Mus musculus with 16 samples.

Results

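The CCN family of secreted matrix proteins was examined in primary mouse preadipocytes with and without Fgf8b. Its members were chosen by gene symbol, as the 5 genes that the deposited table lists under the older names Cyr61, Ctgf, Nov, Wisp1 and Wisp2 (now Ccn1, Ccn2, Ccn3, Ccn4 and Ccn5 in that order), out of 29060 genes with a symbol. The family was picked for description with earlier results of these data known, the lower Wisp2 with Fgf8b among them, so the members' own levels and differences are given as a description, with no p-value. Where members are counted or marked as called below, the calls are a description too and not a test of the family. All 5 passed the filter on low values, at least 0.5 RPKM (reads per transcript length and library size, so values of different genes can be compared) in at least 4 libraries, which 15222 genes passed. The remaining family member, Wisp3 (Ccn6), was listed at 0 to 0.271 RPKM over the 16 libraries, on 0 to 6 reads, and did not pass.

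The cells were fibroblast-like fat cell precursors grown from the stromal-vascular fraction of inguinal white fat, a subcutaneous depot, or interscapular brown fat, a heat-producing depot. All came from C57BL/6N mice that carry a UCP1 reporter, the strain label shared by every group. There were 4 groups of 4 libraries, control or Fgf8b-treated cells of either depot, called white or brown control and white or brown Fgf8b here. Fgf8b is a secreted growth factor that acts through FGF receptors and the ERK kinases; its dose and duration and the age of the animals were not given in the labels. The design text speaks of 3 cultures per depot, and which libraries share one is not stated. If so, some of the 4 libraries of each group share a culture, and the spread between libraries is in part technical. The SDs, SEs and adjusted p-values below treat the libraries as independent and may overstate the replication. Libraries 1 to 8 were all white and 9 to 16 all brown, and an effect of depot and one of library number cannot be told apart. Read depth recovered from the values was 13.7 to 20.1 M per library. The source label calls the cells adipocytes, but Lep, Retn and Cfd were listed at 0 in every library and mean Adipoq was at most 0.0424 RPKM in any group, while the precursor marker Pdgfra averaged 67.5 to 98.1 RPKM. Fabp4, which precursors can also express, averaged 5.82 to 18.1 RPKM. Brown control 15 differed from the other brown controls in how reads spread over transcript entries, most of all those of Wisp1 (values below). The member differences that it moves most, those of Wisp2, are given with and without it. Leaving brown control 15 out changed no call for any of the 5 members.

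CCN proteins are matricellular proteins: they are secreted into the matrix, bind integrins and heparan sulphate and modulate adhesion and growth factor signals without forming part of the scaffold. Cyr61 and Ctgf are rapidly induced by growth factors and by cell tension, through the YAP and TAZ coactivators with TEAD factors and through serum response factor. Nov is known for restraining growth in several cell types. Wisp1 and Wisp2 were named as genes induced by WNT1, and Wisp2 is known in fat as a secreted factor of precursor cells that holds back their commitment.

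The family shares a cysteine-rich build, which the choice by symbol did not use. In the transcript annotation GENCODE M21 (GRCm38), the coding sequences of Cyr61, Ctgf, Nov and Wisp1 hold 38, 39, 40 and 38 cysteine codons out of 379, 348, 354 and 367 codons. Wisp2, which lacks the C-terminal cysteine knot of the others, holds 29 out of 251. The lines below show the 30 coding bases around the insulin-like growth factor binding motif, which all 5 members hold, read from GENCODE M21. Other genes were not searched for it. Capitals mark the 5 codons of the motif (glycine, cysteine, any residue, cysteine, cysteine).
Cyr61: cgggacGGCTGCGGCTGCTGTaaggtctgc
Ctgf: ctggacGGCTGCGGCTGCTGCcgcgtctgc
Nov: ctggacGGCTGCTCCTGCTGTccggtgtgc
Wisp1: acagatGGCTGTGAATGCTGTaagatatgt
Wisp2: ctggatGGCTGTGGCTGCTGTcgagtgtgt
In GRCm38 these windows lie at chr3:145649331-145649360 (minus strand, exon 2) for Cyr61 and chr10:24595960-24595989 (plus strand, exon 2) for Ctgf. They lie at chr15:54746259-54746288 (plus strand, exon 2) for Nov, at chr15:66906539-66906568 (plus strand, exon 2) for Wisp1 and at chr2:163825219-163825248 (plus strand, exon 3) for Wisp2. The Cyr61 and Ctgf windows were identical at 25 of 30 bases, and the Wisp1 window matched the others at 16 to 20 bases. These coordinates are those of the annotation.

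Among the members, the promoter table (RefSeq, GRCm38.p6) held Cyr61. Its 250 bases before the transcript start, chr3:145649986-145650235 on the minus strand, are shown because the levels of Cyr61 are compared below with those of YAP and TEAD targets. Capitals mark the TEAD element ACATTCC.
Cyr61 promoter: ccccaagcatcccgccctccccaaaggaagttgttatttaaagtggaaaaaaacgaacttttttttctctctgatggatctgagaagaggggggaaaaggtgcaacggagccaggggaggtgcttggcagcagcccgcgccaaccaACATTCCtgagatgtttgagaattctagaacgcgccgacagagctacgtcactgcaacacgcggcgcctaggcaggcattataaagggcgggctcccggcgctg
The element ACATTCC was searched on both strands, and it starts 104 bases before the transcript start. Of 32851 promoter windows of the same length, 3.25% hold it. The window also holds 1 match to TGACGT, a cyclic AMP response half-site (6.47% of windows), and 1 to TATAAA (12.4%), and no match to the AP-1 site TGANTCA (6.75%) or to a CArG box (1.47%). These motifs were picked with the sequence in view, and do not overlap one another where they matched. Of 15 other YAP/TEAD target genes with a promoter in the table, 3 held ACATTCC.

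Taken as a sum, the 5 transcripts were most abundant in brown controls and lower with Fgf8b in both depots. The sum ranged from 319 to 356 RPKM in white controls and from 215 to 221 RPKM in white Fgf8b libraries, 1.53-fold lower between the means. In brown controls it ranged from 762 to 802 RPKM and in brown Fgf8b libraries from 289.7 to 297 RPKM, 2.67-fold lower between the means. The groups did not overlap. In bulk samples such as these, fewer cells of a type and less RNA per cell cannot be told apart. The brown to white ratio of the sum was 2.35 in controls and 1.35 with Fgf8b.

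**Figure D1:**
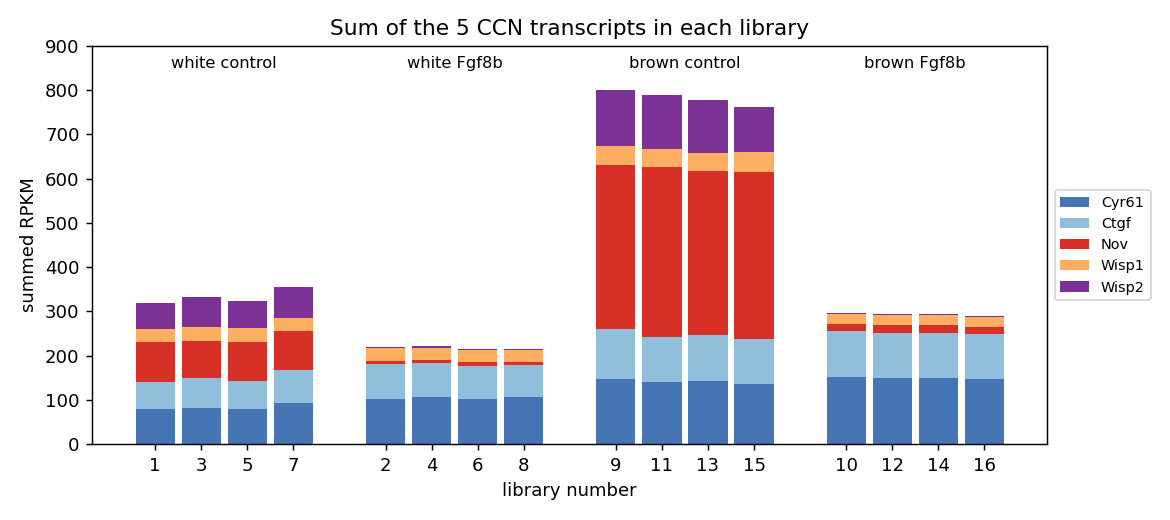
Stacked bars show the RPKM of the 5 CCN transcripts (RefSeq entries) in each of the 16 libraries, by library number and group, on a linear axis from 0. Nov and Wisp2 make up most of the height that is missing in the Fgf8b libraries, while the Cyr61 and Ctgf segments stay at 70.6 RPKM or above there.

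The make-up of the sum shifted from Nov and Wisp2 to Cyr61 and Ctgf. In brown controls Nov was 48.1% ± 1.35 (SD, n = 4) of the sum and Wisp2 15% ± 1.14. With Fgf8b they were 5.58% ± 0.253 and 0.799% ± 0.149. In white cells Nov went from 26.4% ± 1.5 to 3.44% ± 0.177 and Wisp2 from 19.4% ± 0.972 to 1.08% ± 0.176. Cyr61 and Ctgf were the 2 largest members in both Fgf8b groups, Cyr61 at 48.3% ± 1.36 in white and 50.9% ± 0.187 in brown, and Ctgf at 34.5% ± 1.29 and 34.9% ± 0.196. A share also moves when another member moves, and the level of Ctgf in brown cells, given below, overlapped between the groups.

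In levels, the order of the members changed between groups. In white controls it was Nov, Cyr61, Ctgf, Wisp2 and Wisp1, where the ranges of Nov and Cyr61 overlapped and so did those of Ctgf and Wisp2. In brown controls it was Nov, Cyr61, Wisp2, Ctgf and Wisp1, with overlapping ranges of Wisp2 and Ctgf. In both Fgf8b groups it was Cyr61, Ctgf, Wisp1, Nov and Wisp2, and no neighbours overlapped. Brown control Nov was the 80th most abundant of 29060 genes by mean RPKM, and brown Fgf8b Nov the 4647th.

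**Figure D2:**
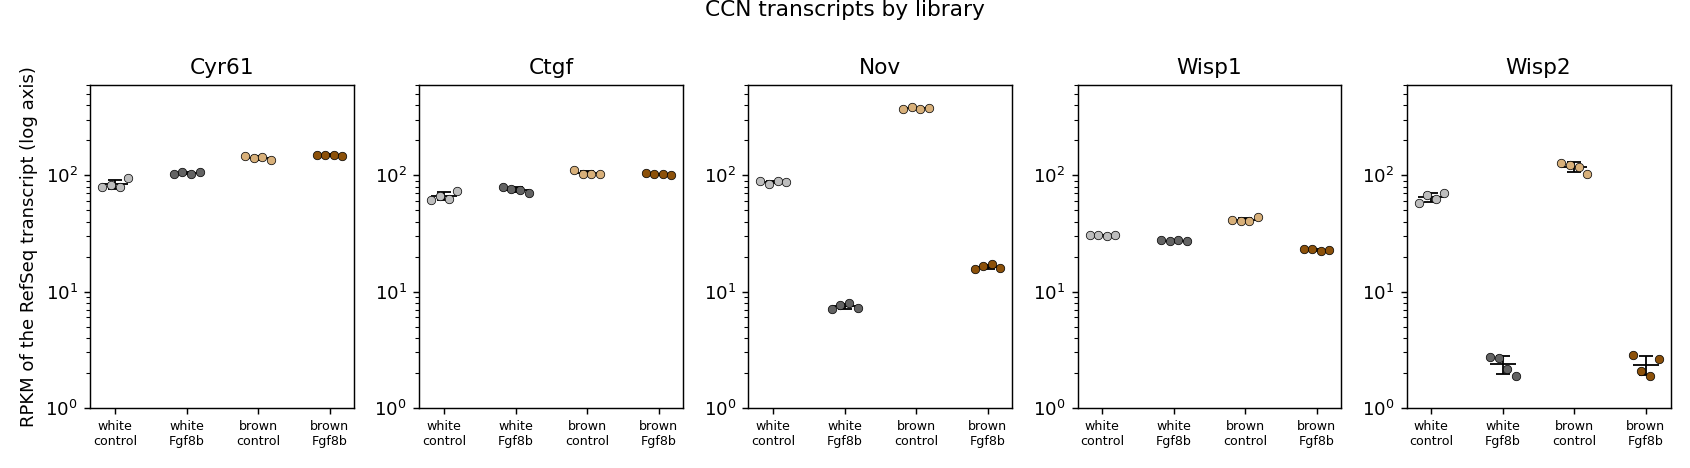
Each point is 1 library, with the mean and SD of 4 libraries per group, as RPKM of the RefSeq transcript on a log axis. Nov and Wisp2 fall by more than 1 decade between control and Fgf8b in both depots, Wisp1 shifts most in brown cells, and Cyr61 and Ctgf lie higher in brown than in white libraries.

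Cyr61, the immediate early member that promotes adhesion and angiogenesis, was higher with Fgf8b in white cells, and brown groups overlapped. In white controls libraries 1, 3, 5 and 7 had 79.7, 82.0, 79.9 and 94.2 RPKM, and in white Fgf8b libraries 2, 4, 6 and 8 had 103, 107, 103 and 108 RPKM. Library 7 was the high one among the controls and still lay below every Fgf8b library. The difference was 0.33 (SE 0.0456) on the log2(RPKM summed over the gene's entries + 0.5) scale, on which all differences and folds below stand and which understates changes of low genes. Brown controls 9, 11, 13 and 15 had 148, 140.5, 143 and 136 RPKM, and brown Fgf8b libraries 10, 12, 14 and 16 had 151, 150.4, 149 and 147 RPKM. The brown groups overlapped, with control 9 above Fgf8b library 16, and the log2 difference was 0.08 (SE 0.0456), which became -0.015 with upper-quartile scaling. Between depots Cyr61 was higher in brown cells, by 0.76 in controls and 0.51 with Fgf8b (log2, SE 0.0456), and neither pair of groups overlapped. About 2516 to 4875 reads per library lay behind the Cyr61 values.

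Ctgf, connective tissue growth factor, a fibrosis-associated member, differed little with Fgf8b. White controls 1, 3, 5 and 7 had 61.2, 66.8, 63.2 and 73.0 RPKM, and white Fgf8b libraries 2, 4, 6 and 8 had 78.9, 76.5, 74.7 and 70.6 RPKM. The groups overlapped, since control 7 was above Fgf8b library 8, and the log2 difference was 0.19 (SE 0.0522), 1.14-fold. Brown controls 9, 11, 13 and 15 had 112, 102, 103 and 102 RPKM, and brown Fgf8b libraries 10, 12, 14 and 16 had 104, 102, 102 and 102 RPKM. The brown groups overlapped with a log2 difference of -0.03 (SE 0.0522). Ctgf was likewise higher in brown cells without overlap, by 0.67 in controls and 0.44 with Fgf8b (log2, SE 0.0522). Within the controls, the library with the highest Ctgf was also the one with the highest Cyr61, library 7 in white and library 9 in brown cells.

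**Figure D3:**
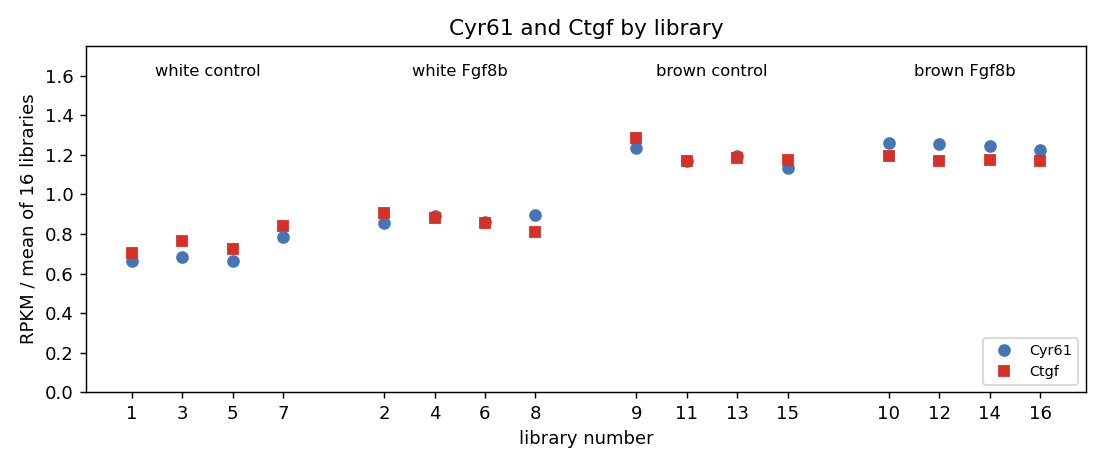
RPKM of Cyr61 and Ctgf in each library is divided by the gene's mean over 16 libraries, on a linear axis from 0, with library numbers and groups along the x axis. Both genes step up from white to brown libraries, and control libraries 7 and 9 are the highest of their groups for each.

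Nov was lower with Fgf8b in both depots and carried the largest depot difference of the family. White controls 1, 3, 5 and 7 had 89.3, 85.1, 88.6 and 88.2 RPKM, and white Fgf8b libraries 2, 4, 6 and 8 had 7.13, 7.64, 7.92 and 7.25 RPKM. The groups were far apart, at 87.8 ± 1.86 and 7.48 ± 0.362 RPKM (SD, n = 4), a log2 difference of -3.54 (SE 0.0388), 11.6-fold lower. Brown controls 9, 11, 13 and 15 had 372, 385, 372 and 378 RPKM, and brown Fgf8b libraries 10, 12, 14 and 16 had 15.7, 16.6, 17.3 and 16 RPKM. The log2 difference was -4.51 (SE 0.0388), 22.8-fold lower. Between controls Nov was 4.26-fold higher in brown than in white cells (log2 2.09), and between Fgf8b groups 2.17-fold (log2 1.12). Every brown Fgf8b library lay below every white control. The lowest group, white Fgf8b, rested on about 335 to 457 reads per library.

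Wisp2 had the largest Fgf8b differences of the family. White controls 1, 3, 5 and 7 had 57.9, 68.1, 62.4 and 70.3 RPKM, and white Fgf8b libraries 2, 4, 6 and 8 had 2.75, 2.66, 2.16 and 1.88 RPKM. The log2 difference was -4.64 (SE 0.120), 24.9-fold lower. Brown controls 9, 11, 13 and 15 had 129, 122, 118 and 102 RPKM, and brown Fgf8b libraries 10, 12, 14 and 16 had 2.82, 2.06, 1.89 and 2.61 RPKM. The log2 difference was -5.53 (SE 0.120), 46.3-fold lower, and without brown control 15, the lowest brown control, -5.60. The depots differed 1.82-fold in controls (brown higher, log2 0.86), or by 0.93 (log2) without control 15. With Fgf8b both depots came to 2.36 ± 0.412 and 2.34 ± 0.440 RPKM with overlapping ranges (log2 -0.03, SE 0.120). These low values rested on about 47 to 87 reads per library, and that difference came out positive (log2 0.017, 0.027 and 0.068) without white Fgf8b library 2, white Fgf8b library 4 or brown Fgf8b library 14.

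Wisp1, a secreted survival and bone-forming factor, differed little in white and more in brown cells. White controls 1, 3, 5 and 7 had 30.6, 30.8, 30.3 and 30.4 RPKM, and white Fgf8b libraries 2, 4, 6 and 8 had 27.5, 27.5, 27.6 and 27.3 RPKM. The groups did not overlap although the log2 difference was only -0.14 (SE 0.0316), 1.10-fold lower. Brown controls 9, 11, 13 and 15 had 41.3, 40.1, 40.6 and 44.1 RPKM, and brown Fgf8b libraries 10, 12, 14 and 16 had 23.1, 23.4, 22.5 and 22.7 RPKM. The log2 difference was -0.84 (SE 0.0316), 1.79-fold lower, and -0.84 without control 15 as well. Wisp1 thereby changed its depot order: brown controls were higher than white controls (log2 0.41, SE 0.0316) and brown Fgf8b libraries lower than white Fgf8b libraries (log2 -0.29, SE 0.0316). No other member was lower in brown cells with non-overlapping groups.

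**Figure D4:**
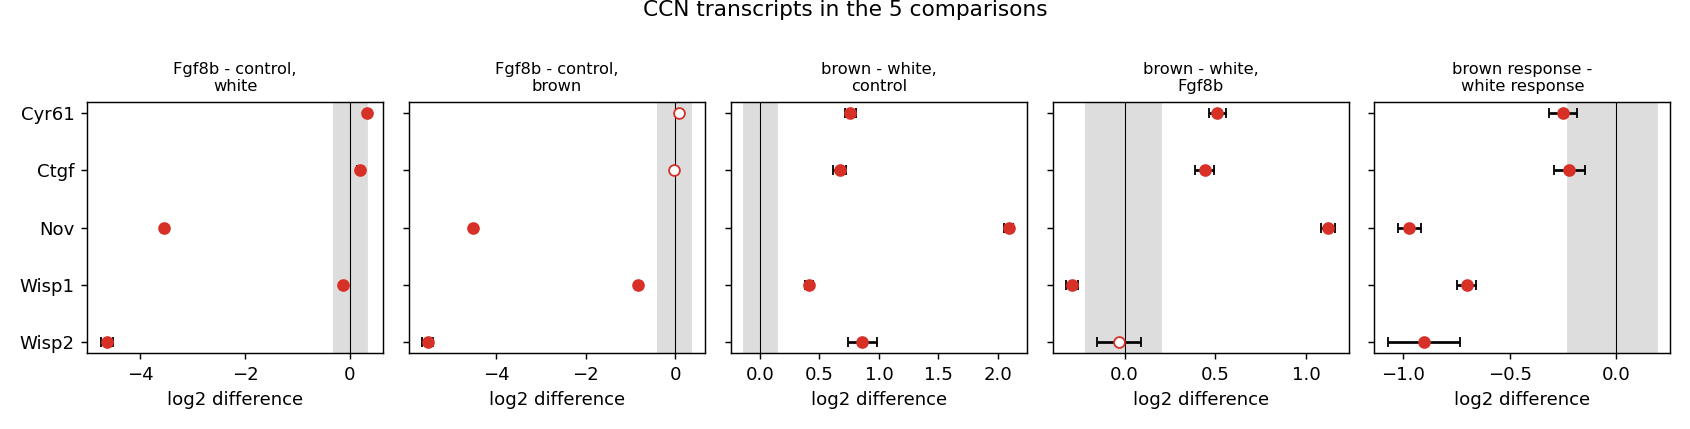
Points are log2 differences of the 5 members in each comparison, with bars of 1 SE and filled points where the fit over all genes gave an adjusted p under 0.05. The filling is a description, since the members' values entered the choice of the family. Grey bands span the middle 50% of all 15222 genes tested. Nov and Wisp2 lie far to the left of the bands under Fgf8b, and all members lie to the right of the band between control depots.

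The members' own comparisons entered the choice of the family, so their counts are given beside those of all genes as a description. Limma (moderated linear models, Benjamini-Hochberg adjustment over 15222 genes, adjusted p under 0.05) called all 5 members in white cells, 2 higher and 3 lower, where it called 65.7% of all genes (36.3% higher and 29.5% lower). In brown cells it called 3 of 5, all lower, where it called 71.4% of all genes (36.7% higher and 34.7% lower). The median log2 difference of the members was -0.14 in white and -0.84 in brown cells, beside 0.04 and 0.01 over all genes. With upper-quartile factors the balance over all genes turned, from 5521 higher and 4486 lower to 4738 and 5100 in white cells and from 5582 and 5282 to 4680 and 6108 in brown cells. By size, Wisp2 was the 20th lowest of 15222 log2 differences in white and the 4th lowest in brown cells, and Nov the 66th and the 20th lowest. Between control depots all 5 members were called higher in brown cells, where 18.1% of all genes were (33.9% in either direction), with a median of 0.76 beside 0.01 (log2). Nov was the 40th highest there. With Fgf8b, 3 members were called higher and 1 lower in brown cells, where 51.6% of all genes were called (26.9% of all genes higher and 24.7% lower, or 3623 and 4213 genes with upper-quartile factors). Without brown control 15, 4431 genes were called higher and 4082 lower there, beside 4098 and 3760 with it. The response in brown minus that in white cells was negative and called for all 5 members, where 34.9% of all genes were called (17.8% negative and 17.1% positive). It was -0.97 (SE 0.0549) for Nov, -0.90 (SE 0.170) for Wisp2, -0.70 (SE 0.0448) for Wisp1, -0.25 (SE 0.0644) for Cyr61 and -0.22 (SE 0.0738) for Ctgf (log2). Without brown control 15 it was -0.97 for Wisp2. Over all genes 2857 positive and 3018 negative differences were then called, beside 2604 and 2709 with that library. The brown response and the control depot comparison share the brown controls. For Ctgf this call was lost without white control 1 or 5, white Fgf8b library 2 or brown control 9.

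Each member's transcript entries gave nearly the same differences, but in 1 library entries of the same gene diverged, most of all those of Wisp1. The table lists 19 entries for the 5 genes, 7 for Nov, 6 for Wisp1, 3 for Wisp2, 2 for Cyr61 and 1 for Ctgf, and entries of a gene overlap, so they are not independent. Over entries the log2 ratio of mean RPKM, Fgf8b to control, ran from -3.57 to -3.54 in white and from -4.53 to -4.51 in brown cells for Nov, and from -4.78 to -4.59 and from -5.65 to -5.56 for Wisp2. For Wisp1 it ran from -0.17 to -0.07 and from -0.88 to -0.75. In brown control 15 the Wisp1 entries diverged: the RefSeq entry stood at 1.08 times the mean of the other brown controls, AK164558 at 1.21 times and ENSMUST00000133863 at 0.649 times. The Nov entries of that library stood at 0.917 to 1.0 times, its Wisp2 entries at 0.772 to 0.831 times and its Cyr61 entries at 0.945 times that mean.

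Likeness to each member was measured as Pearson's r of log2(summed RPKM + 0.5) over the 16 libraries, among the 9663 other genes whose mean reached 5 RPKM in some group. It is a description: the 16 points fall into 4 groups, and r compares shapes and not sizes. The second and the third most like Cyr61 were Runx1, a transcription factor (r = 0.982), and Lmcd1, a LIM domain regulator (r = 0.977), and the second and the third most like Ctgf were Eogt, a glycosyltransferase (r = 0.973), and the patterning gene Hoxa3 (r = 0.970). Nov was most like Pdlim5, a cytoskeletal adaptor, the homeobox gene Meox2 and the exocyst subunit Exoc4 (r = 0.996 each). Their changes were smaller, Pdlim5 going from 43.8 ± 1.19 to 25 ± 0.504 RPKM in white cells. Wisp2 was most like Lrpap1, a chaperone of lipoprotein receptors, and the protease Adamts1 (r = 0.997 each), and Figf, the growth factor VEGF-D (r = 0.996). Figf went from 66.8 ± 1.22 to 11.3 ± 1.08 RPKM in white and from 88.3 ± 2.76 to 10.1 ± 1.49 RPKM in brown cells. Wisp1 was most like Pdzrn3, a ubiquitin ligase (r = 0.986), Hip1, an endocytic adaptor (r = 0.979), and the transcript A730054J21Rik (r = 0.974). Pdzrn3 shared the reversed depot order of Wisp1, at 32.0 ± 0.336 and 38.8 ± 0.581 RPKM in white and brown controls and 29.9 ± 1.0 and 25.5 ± 0.982 RPKM with Fgf8b. Without brown control 15, Pdlim5, Lrpap1 and Pdzrn3 were again the genes most like Nov, Wisp2 and Wisp1, and A730054J21Rik came 11th for Wisp1.

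Genes around the family were taken from lists drawn up with earlier results known. Of 22 YAP and TEAD targets outside the family, 8 rose and 12 fell with Fgf8b in white cells, and 8 rose and 12 fell in brown cells, with medians of -0.26 and -0.13 (log2), beside 0.04 and 0.01 over all genes. Of all genes, 36.3% were called higher and 29.5% lower in white cells, and 36.7% and 34.7% in brown cells. The Fgf8b counts of this list and of the lists that follow stand beside these shares, as a description. Tgfb2, a TGF-beta ligand, fell from 3.27 ± 0.191 to 2.24 ± 0.120 RPKM in white cells (limma adjusted p = 2.27e-07) and from 3.93 ± 0.239 to 0.644 ± 0.0563 RPKM in brown cells (adjusted p = 3.66e-16). Igfbp3 and F3 had the largest differences of the list. Igfbp3 fell 47.7-fold in white and 15.5-fold in brown cells, and F3 18.3-fold and 11.3-fold. Ccdc80, a matrix protein of fat cell precursors, fell 3.56-fold and 5.63-fold. Ankrd1, a muscle ankyrin repeat protein, rose by 2.12 in white and 1.89 in brown cells (log2, limma adjusted p = 6.46e-15 and 2.82e-14). Amotl2 of the same list fell in white and brown cells (log2 -1.28 and -1.57, limma adjusted p = 6.1e-14 and 2.3e-15). Both were named after their values were seen. The list held members that moved far in opposite directions, and Cyr61 and Ctgf differed by at most 0.33 (log2). A part of YAP and TEAD in this was not tested.

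Of 19 Hippo pathway genes and TEAD partners, 9 rose and 4 fell in white and 11 rose and 4 fell in brown cells, with medians of 0.13 and 0.18 (log2). With median-of-ratios factors 7 rose in white cells and 6 fell in brown cells. Wwtr1, which encodes TAZ, rose from 35 ± 0.378 to 47.1 ± 2.32 RPKM in white (limma adjusted p = 1.12e-09) and from 35.3 ± 2.18 to 55.5 ± 0.834 RPKM in brown cells (adjusted p = 2.14e-12). Yap1 rose in brown cells (log2 0.28, limma adjusted p = 2.67e-07) and did not pass in white cells (log2 0.05, adjusted p = 0.176). Tead1, a TEAD factor, passed in neither (log2 0.03 and 0.07, limma adjusted p = 0.481 and 0.0579). Vgll3, a TEAD cofactor, fell 2.07-fold and 1.88-fold.

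Of 18 serum response factor and MRTF genes, 5 rose and 10 fell in white, and 2 rose and 12 fell in brown cells, with medians of -0.425 and -0.49 (log2). Between control depots 14 of the 18 were higher in brown cells at a limma adjusted p under 0.05, where 18.1% of all genes were, and between Fgf8b groups 8 were higher and 2 lower. Of the 22 YAP and TEAD targets, 11 were higher and 6 lower in brown controls, and 11 higher and 5 lower in brown Fgf8b libraries. Of all genes, 18.1% were higher and 15.9% lower in brown controls, and 26.9% and 24.7% in brown Fgf8b libraries. Srf itself rose in both depots, by 0.30 and 0.41 (log2, limma adjusted p = 0.00224 and 9.26e-05). Acta2, smooth muscle actin, fell from 641 ± 38.5 to 179 ± 8.21 RPKM in white and 3.89-fold in brown cells. The brown control value of Acta2 was 1.64-fold that of white controls.

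Genes of CCN receptors changed in both directions. Of 13 tested of 15 integrin, lipoprotein receptor, syndecan and Notch genes, 6 rose and 4 fell in white and 6 rose and 5 fell in brown cells, with medians of 0.09 and 0.09 (log2). Itga6, an integrin subunit through which Cyr61, Ctgf and Nov act on fibroblasts, rose from 2.29 ± 0.162 to 18.1 ± 0.741 RPKM in white (limma adjusted p = 1.76e-19) and from 2.72 ± 0.0638 to 17.3 ± 0.861 RPKM in brown cells (adjusted p = 6.44e-19). Itga11, a collagen-binding subunit, fell from 20.6 ± 0.109 to 0.455 ± 0.0806 RPKM in white and from 20.8 ± 1.12 to 0.396 ± 0.0761 RPKM in brown cells. Itgb5, which pairs with the alpha-v subunit, fell 1.70-fold and 2.25-fold.

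Of 13 tested of 15 WNT target genes, 5 rose and 5 fell in white, and 7 rose and 4 fell in brown cells; with either scaling alternative 6 rose and 5 fell in brown cells. Lgr5, a receptor that potentiates WNT signals, fell from 3.26 ± 0.440 to 0.0656 ± 0.0556 RPKM and Nkd1, a feedback inhibitor, from 2.41 ± 0.136 to 0.368 ± 0.0845 RPKM in white cells, while the transcription factor Tcf7 rose from 0.268 ± 0.0585 to 2.24 ± 0.261 RPKM. In brown cells Lgr5 and Nkd1 also fell and Tcf7 rose (log2 -2.66, -2.99 and 1.99). The list moved in both directions, and the WNT-named Wisp1 and Wisp2 were both lower in both depots. A part of WNT signals in this was not tested. Of 15 TGF-beta target genes, 5 rose and 9 fell in each depot, with medians of -0.38 and -0.45 (log2). Tgfb3, a TGF-beta ligand, fell 1.58-fold in white and 2.65-fold in brown cells and was higher in brown than in white controls (1.92-fold). Of 16 other matricellular proteins, 3 rose and 12 fell in each depot (medians -0.51 and -0.62, log2). Spp1, osteopontin, rose from 88.8 ± 4.76 to 8509 ± 264 RPKM in white and from 36.2 ± 3.15 to 5601 ± 181 RPKM in brown cells, the largest change of the list. Postn, periostin, fell from 989 ± 79.4 to 154 ± 10.8 RPKM in brown cells, and Tnxb, tenascin-X, fell 9.06-fold in white and 4.60-fold in brown cells. The TGF-beta and matricellular lists share Tgfbi.

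**Figure D5:**
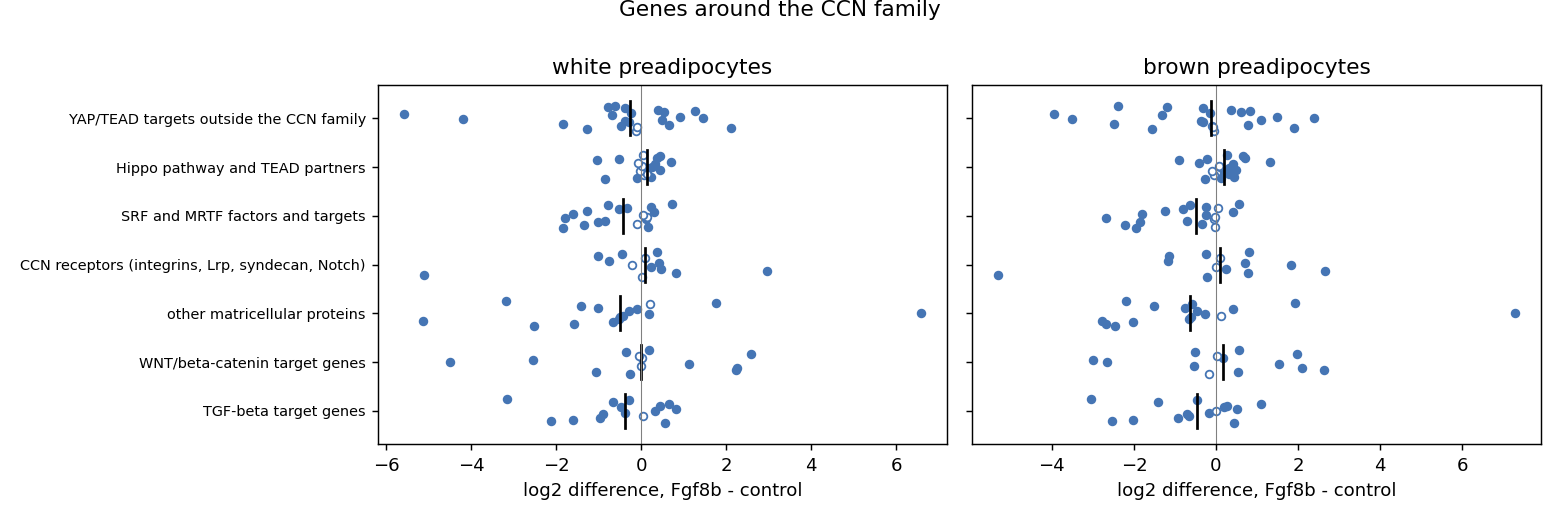
Each point is the log2 difference, Fgf8b minus control, of 1 gene of the lists around the CCN family, filled where limma gave an adjusted p under 0.05, and black strokes mark list medians. The medians of the YAP and TEAD target, serum response factor, matricellular and TGF-beta lists lie left of 0 in both panels, and every list holds points on both sides.

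With Fgf8b, summed levels of endothelial, Schwann cell and skeletal muscle markers were lower in both depots, as Nov and Wisp2 were, and those of leukocyte and chondrocyte markers higher. The 7 endothelial markers summed to 11.1 to 12 RPKM in white controls and 2.39 to 2.92 RPKM with Fgf8b, and to 7.67 to 8.96 and 1.53 to 1.91 RPKM in brown cells, with mean Pecam1 at 0.0124 to 0.172 RPKM over the groups. Most of that sum was Tek, which went from 9.29 to 0.608 RPKM in white and from 6.58 to 0.38 RPKM in brown cells, while Cdh5 rose in both (log2 0.66 and 0.43, limma adjusted p = 0.000597 and 0.0134). The 6 Schwann cell markers summed to 10 to 11.8 and 1.85 to 2.67 RPKM in white and 14.7 to 17.9 and 3.92 to 5.21 RPKM in brown cells. The 7 smooth muscle and pericyte markers summed to 37.0 to 39.2 RPKM in white and 60.4 to 72.8 RPKM in brown controls, the depot order of all 5 CCN members, and to 49.5 to 50.6 and 57.2 to 60.1 RPKM with Fgf8b, higher than the controls in white and lower in brown cells. Of these 7, 2 were called higher and 3 lower in white cells, and 1 higher and 4 lower in brown cells. In white cells Rgs5 rose from 0.383 to 8.89 RPKM and Mcam from 7.69 to 15.2 RPKM, while Myh11 fell from 1.21 to 0.171 RPKM. The 6 chondrocyte markers summed to 9.22 to 10.3 and, with Fgf8b, 12 to 12.6 RPKM in white and to 12 to 13.2 and 24.4 to 26.2 RPKM in brown cells, mostly Sox9, while Col9a1 was at 0 in every library and Acan averaged at most 0.011 RPKM. Leukocyte markers summed to 5.26 to 6.05 and, with Fgf8b, 6.81 to 7.53 RPKM in white and to 6.38 to 8.91 and 9.31 to 10.1 RPKM in brown cells, with mean Ptprc at most 0.0053 RPKM. Of the 4 tested, 2 were called higher and 2 lower in each depot. Cd14 rose from 3.01 to 5.12 RPKM in white and from 3.58 to 7.87 RPKM in brown cells. Lyz2 fell from 1.22 to 0.0919 RPKM in white and from 2.96 to 0.171 RPKM in brown cells, and Csf1r fell as well. Mesothelial markers summed to 8.94 to 14.9 RPKM, nearly all Krt19, and skeletal muscle markers to 5.34 to 10.8 RPKM over the controls and 2.19 to 2.73 RPKM over the Fgf8b libraries, with Myod1 at 0 throughout. The 10 precursor markers summed to 4295 to 4480.1 RPKM in white controls and 2439 to 2587 RPKM with Fgf8b, and to 2984 to 3425 and 1332 to 1388 RPKM in brown cells. Most of the control sums was Col1a1, Col3a1 and Ly6a, which fell in both depots. Thy1 rose from 269 to 746 RPKM in white and from 294 to 555 RPKM in brown cells. In white cells 5 of the 10 were called higher and 5 lower, and in brown cells 2 higher and 7 lower. The part of these cell types in the CCN differences was not tested.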

How the data were processed

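Per the labels' protocols, Trisure-extracted, column-purified RNA went into Illumina TruSeq v2 libraries. CASAVA and bcl2fastq are the tools listed, per the submitters' processing notes. The authors deposited RPKM per transcript entry with decimal commas; aligner, build, annotation and strandedness were not given in the sources used here. Entries without a gene symbol (23172) or with a repeated accession (808, some of them the same entries) were left out of 168326, and the remaining 144549 were summed to genes. Entries of a gene overlap, so a sum counts reads more than once; levels are those of the RefSeq entry with the highest mean. Depth was recovered from whole-read steps: 95.7 to 96.1% of values at or under 50 reads fell within 0.1 of a whole number. Reads behind a value use GENCODE M21 lengths and are approximate.

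The 15222 genes were fitted as log2(RPKM + 0.5) with limma 3.58.1 (R 4.3.3; trend and robust moderation, 1 model of 16 libraries, 5 comparisons), after it was tested on simulated data. Members and lists were chosen with earlier results of these data known. The rule for named list genes took up to 4 per list with the largest called Fgf8b difference and a mean of at least 1 RPKM, plus Yap1, Wwtr1, Tead1 and Srf; those bearing on the family are described. For likeness, the 3 most like genes of each member were taken; 1 gene is not reported here. Alternatives were pseudocounts of 0.1 and 1, other filters, 2 scalings, RefSeq entries alone, plain moderation and leaving out each library.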

Additional observations from a re-analysis of the deposited data

Results flagged for a closer look

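A single library stood far from the other 3 of its group by Dixon's criterion in 13 of 204 groups checked, where chance gives about 5%. Among the members these were Cyr61 in white control 7 (94.2 RPKM) and Ctgf in brown control 9 (112 RPKM). Among white controls, single libraries lay apart for F3 at 519 RPKM. Among brown controls, single libraries lay apart for Acta2 at 910.5, Col1a1 at 1071 and F3 at 628 RPKM. Among white Fgf8b libraries, single libraries lay apart for Ccnd1 at 108, Itga6 at 17 and Tead4 at 1.74 RPKM. Among brown Fgf8b libraries, single libraries lay apart for Fhl1 at 17, Lmod1 at 2.53, Runx1 at 9.81 and Tnxb at 0.498 RPKM. 

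The response to Fgf8b was also compared between the depots. For the members, given as a description, brown minus white was -0.25 for Cyr61, -0.22 for Ctgf, -0.97 for Nov, -0.70 for Wisp1 and -0.90 for Wisp2 (log2). Among the list genes named by the rule and the genes most like a member (other list genes were not compared here), by limma's interaction term with Benjamini-Hochberg adjustment (adjusted p under 0.05 for each gene named), the log2 difference was negative for Tgfb2 (-1.79), A730054J21Rik (-1.56), Postn (-1.11), Lmod1 (-0.90), Cnn1 (-0.86), Fhl1 (-0.83), Tgfb3 (-0.74), Ccdc80 (-0.66), Figf (-0.56), Hoxa3 (-0.55), Pdzrn3 (-0.53) and Hip1 (-0.49). The smaller differences of that sign were those of Col1a2 (-0.42), Col1a1 (-0.41), Itgb5 (-0.40), Lmcd1 (-0.40), Adamts1 (-0.34), Runx1 (-0.34), Itga6 (-0.30), Exoc4 (-0.23), Meox2 (-0.21) and Pdlim5 (-0.12). It was positive, in the same units, for Smoc2 (2.37), Itgb2 (2.04), Lgr5 (1.84), Igfbp3 (1.62), Tnxb (0.98), Spp1 (0.70), F3 (0.69), Amot (0.58), Ccnd1 (0.40), Yap1 (0.23), Wwtr1 (0.22) and Timp3 (0.12).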

How the results depend on the processing

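The numbers of genes called in the 5 comparisons stayed within 1.5 times under all 24 alternatives. Of the members' values under the alternatives, 591 kept their direction and side of the threshold, and 9 did not. The Fgf8b difference of Cyr61 in brown cells became -0.015 (log2) with upper-quartile factors, where that of Ctgf in brown cells (-0.123) passed the threshold. The depot difference of Wisp2 with Fgf8b ran from -0.137 to 0.068 when single libraries were left out, and became 0.017 and 0.027 without white Fgf8b libraries 2 and 4 and 0.068 without brown Fgf8b library 14. The difference of the Ctgf responses was -0.185 to -0.201 and no longer called without white control 1 or 5, white Fgf8b library 2 or brown control 9. No paired analysis was made, because no library number is shared between groups and the labels state no pairing. Odd numbers were controls and even numbers Fgf8b libraries, and a pairing of neighbouring numbers was not tested. Depth limits Wisp2 with Fgf8b (47 to 87 reads) and Wisp3 (at most 6 reads). Causes were not tested.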
